A study of Rattus norvegicus with 13 samples.

Results

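The clustered protocadherins are cell adhesion proteins of neurons whose genes lie side by side in 3 gene clusters, named alpha, beta and gamma. Their members on this array were taken as the genes with a probe set of their own, a group of short probes whose signals are combined to 1 value, under a single platform gene symbol that starts with Pcdha, Pcdhb or Pcdhg. The rule gave 9 genes of the 14506 with such a probe set, and all 9 belonged to the beta cluster: Pcdhb2, Pcdhb3, Pcdhb4, Pcdhb5, Pcdhb6, Pcdhb8, Pcdhb12, Pcdhb20 and Pcdhb21. Each of them had 1 probe set. The alpha and gamma clusters had 0 members, because the annotation gave a single probe set to 15 alpha genes together and another to 13 gamma genes together. A further probe set was shared by 2 beta genes.

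The samples were brains without the cerebellum from 15 month old male rats of the inbred Fischer F344 strain, born to mothers on a high fructose diet (6 arrays) or on a control diet (7 arrays). The mothers ate these diets from day 1 of gestation through lactation, and after weaning on day 20 the offspring of both groups ate chow. The labels name neither the litter nor the animal behind a sample, so every p-value here reflects sample-to-sample spread alone, part of which may be technical. All values are log2 signals from RMA, a method that corrects background, normalizes the arrays and combines the probes, so a difference of 1 is a doubling of signal. Levels of different probe sets are not on a common scale and are not compared.

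Each clustered protocadherin is a membrane protein with extracellular cadherin repeats that binds the same isoform on another cell. A single neuron chooses a few isoforms from the clusters, and the resulting mixture lets its dendrites and axons tell their own branches from those of other cells. The choice is made at the promoter: each variable exon has its own promoter, most of these carry a conserved element bound by the insulator protein CTCF, and methylation of the promoter keeps an isoform silent. Alpha and gamma transcripts join their variable exon to constant exons shared by the whole cluster, whereas each beta gene is a single exon with no constant part. The signal of a whole brain therefore sums the choices of very many neurons, and fewer cells that use an isoform and less RNA per cell cannot be told apart.

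The promoters of the 9 genes are shown because the same stretch of letters occurs in all of them. The sequences are those of RefSeq for the build GRCr8, and all lie on the plus strand of chromosome 18. Each line is written 5′ to 3′ and holds 49 bases, with a stretch shared by all 9, GGTGGCGCT, in capitals and 20 bases on each side. Outside this stretch, 6 positions were also the same in all 9, among them the next base, g. They were not part of the stretch searched below.
Pcdhb2, chr18:29279913-29279961: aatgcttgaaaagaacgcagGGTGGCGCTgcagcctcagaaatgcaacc
Pcdhb3, chr18:29285594-29285642: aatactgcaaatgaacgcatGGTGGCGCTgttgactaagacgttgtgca
Pcdhb4, chr18:29292201-29292249: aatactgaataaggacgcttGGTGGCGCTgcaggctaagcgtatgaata
Pcdhb5, chr18:29302394-29302442: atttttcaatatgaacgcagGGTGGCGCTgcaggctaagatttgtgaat
Pcdhb6, chr18:29320142-29320190: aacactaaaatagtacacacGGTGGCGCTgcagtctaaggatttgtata
Pcdhb8, chr18:29339248-29339296: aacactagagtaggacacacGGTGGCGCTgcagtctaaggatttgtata
Pcdhb12, chr18:29413638-29413686: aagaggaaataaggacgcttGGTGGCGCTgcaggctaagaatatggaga
Pcdhb20, chr18:29485800-29485848: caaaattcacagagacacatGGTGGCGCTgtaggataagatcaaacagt
Pcdhb21, chr18:29492139-29492187: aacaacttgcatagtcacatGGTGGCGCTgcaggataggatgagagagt

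The stretch GGTGGCGCT was read off these promoters, so its presence in 9 of 9 is how it was chosen. Searched on both strands in windows from 250 bases before to 50 bases after each gene's start, it was present in 153 of 33469 promoters (0.457%). Outside the members it was present in 6 of the 10 other beta promoters in the table and in 0 of the 16 alpha and gamma promoters. It began between 52 and 98 bases before the RefSeq start in 7 members, and 229 and 208 bases before it in Pcdhb6 and Pcdhb8. The windows of Pcdhb6 and Pcdhb8 were identical at 46 of 49 bases, those of Pcdhb4 and Pcdhb12 at 41, and those of the neighbours Pcdhb20 and Pcdhb21 at 37. A match describes letters and is not a measured binding site.

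The members split by how far they varied from brain to brain. Pcdhb2, Pcdhb3 and Pcdhb4, which are direct neighbours in the cluster, had ranges over the 13 arrays of 1.84-fold to 2.12-fold, and the other 6 genes ranged less. These 3 genes are grouped here after their values were seen, so the grouping itself is a description.

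Pcdhb3 was at 7.79, 7.54, 7.09, 6.88, 7.68 and 7.70 in the fructose samples (replicates 1, 2, 3, 4, 7 and 8), against 6.94, 7.29, 7.61, 7.11, 7.41, 6.92 and 6.70 in the control samples (replicates 1, 2, 3, 4, 5, 7 and 8). Fructose replicates 3 and 4 and control replicates 1, 4, 7 and 8 were low, and the groups overlapped over most of their range. Its 13 values spanned 1.08 on the log2 scale, a 2.12-fold range. The standard deviation between arrays of a group was 0.34, and 2.0% of the 15633 probe sets with a gene had a larger one.

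Pcdhb2 was at 8.36, 8.07, 7.83, 7.53, 8.14 and 8.13 in the fructose samples, against 8.01, 8.0, 8.30, 7.96, 8.0, 7.71 and 7.36 in the control samples, in the same replicate order. The lowest sample of each group was again fructose replicate 4 and control replicate 8. Its range was 1.99-fold and its standard deviation 0.29, exceeded by 3.23% of probe sets.

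Pcdhb4 was at 8.75, 8.41, 8.18, 7.87, 8.71 and 8.37 in the fructose samples, against 8.18, 8.24, 8.49, 8.25, 8.33, 8.14 and 7.87 in the control samples. The highest samples were fructose replicate 1 and control replicate 3, as for both other genes, and the lowest were the same pair as for Pcdhb2. Its range was 1.84-fold and its standard deviation 0.26, exceeded by 4.29% of probe sets. Without fructose replicate 4 it was 0.21, exceeded by 8.06%.

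**Figure D1:**
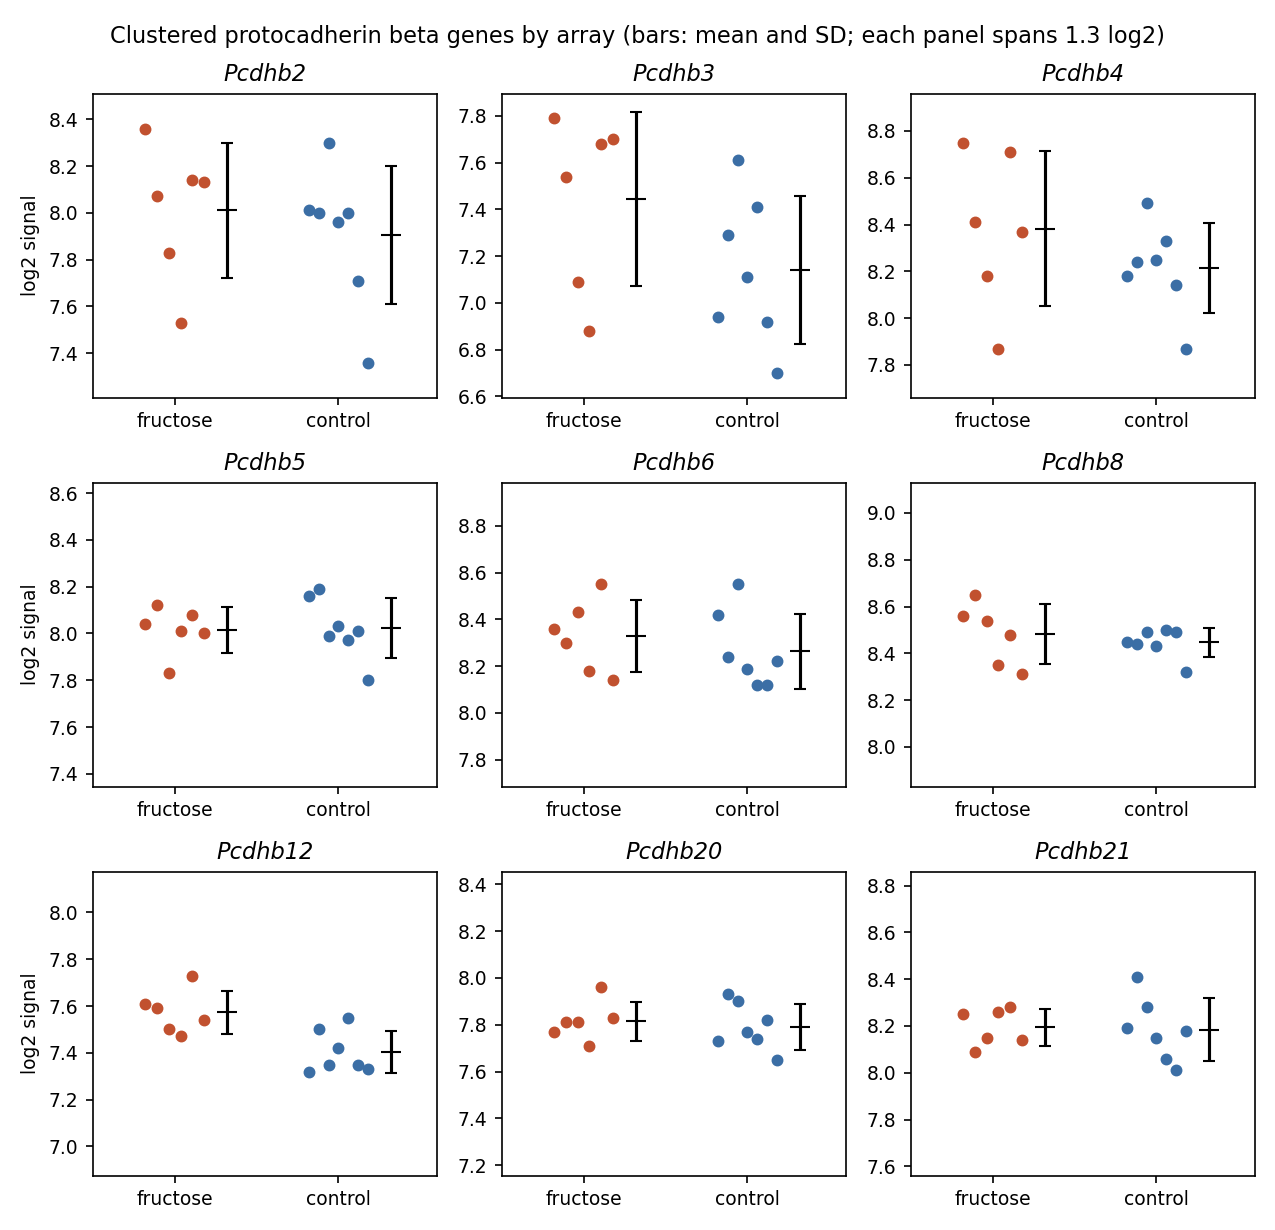
Log2 signal of each of the 9 protocadherin beta genes in the 6 fructose samples (left of each panel) and the 7 control samples (right), with the mean and SD of each group as bars; each panel has its own offset and the same span. The groups overlapped for all 9 genes, and the points of Pcdhb2, Pcdhb3 and Pcdhb4 were the most spread.

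The other 6 genes varied less, with standard deviations of 0.09 to 0.16. Those of all probe sets had a median of 0.115 and quartiles of 0.086 and 0.152. Pcdhb5 was at 8.04, 8.12, 7.83, 8.01, 8.08 and 8.0 in the fructose samples, against 8.16, 8.19, 7.99, 8.03, 7.97, 8.01 and 7.80 in the control samples. Pcdhb5 is the next gene after Pcdhb4, yet its standard deviation was 0.12, exceeded by 48.3% of probe sets. Pcdhb6 had a lowest, median and highest value of 8.14, 8.33 and 8.55 in the fructose samples, against 8.12, 8.22 and 8.55 in the control samples. Its standard deviation of 0.16 was exceeded by 22.1% of probe sets. Pcdhb8 had 8.31, 8.51 and 8.65 in the fructose samples, against 8.32, 8.45 and 8.5 in the control samples. The standard deviations of Pcdhb8, Pcdhb12, Pcdhb20 and Pcdhb21 lay between 0.09 and 0.11, and 51.6% to 71.0% of probe sets had a larger one.

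Pcdhb20 had a lowest, median and highest value of 7.71, 7.81 and 7.96 in the fructose samples, against 7.65, 7.77 and 7.93 in the control samples. Pcdhb21 had 8.09, 8.2 and 8.28 in the fructose samples, against 8.01, 8.18 and 8.41 in the control samples, so its fructose values lay wholly within the control range. The probe sets shared by several genes varied less than the members that stood apart. The set of 15 alpha genes was at 7.93 ± 0.04 (SD, n = 6) in the fructose samples and 7.92 ± 0.03 (SD, n = 7) in the control samples, and 99.6% of probe sets had a larger standard deviation. The set of 13 gamma genes was at 8.88 ± 0.04 (SD, n = 6) in the fructose samples and 8.86 ± 0.07 (SD, n = 7) in the control samples, with 95.6% of probe sets above its standard deviation. The set of 2 beta genes was at 8.25 ± 0.08 (SD, n = 6) in the fructose samples and 8.2 ± 0.09 (SD, n = 7) in the control samples.

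**Figure D2:**
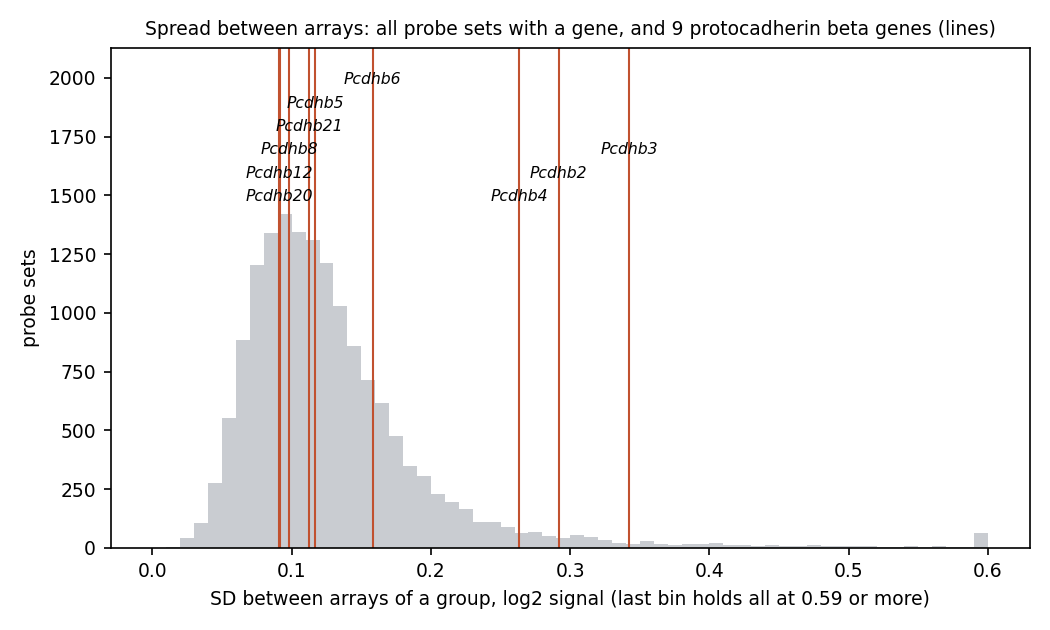
Number of probe sets (vertical axis) by standard deviation between arrays of a group (horizontal axis, log2 signal) for all 15633 probe sets with a gene, with the 9 protocadherin beta genes as lines. Pcdhb4, Pcdhb2 and Pcdhb3 stand at 0.26, 0.29 and 0.34 in the upper tail, and the other 6 between 0.09 and 0.16.

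Co-variation was measured with Pearson's r between genes over the 13 arrays after the group means were removed, and is given as a description, since all genes share the same arrays and normalization. Of the 36 pairs of members 35 were above 0 and 1 was below, with a median r of 0.43. Over all pairs of the 15633 probe sets the median was 0.014 and the quartiles were -0.274 and 0.302, and 26 of the 36 pairs (72.2%) lay above that upper quartile. The median was 0.43 in the control arrays alone and 0.41 in the fructose arrays alone.

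The 3 pairs among Pcdhb2, Pcdhb3 and Pcdhb4 stood apart from the rest, each with an r of 0.91. Spearman's rho was 0.89 for Pcdhb2 and Pcdhb3, 0.81 for Pcdhb2 and Pcdhb4 and 0.89 for Pcdhb3 and Pcdhb4. Of all pairs of probe sets 0.0441% had an r as high. Among the 15632 possible partners of Pcdhb2, ordered by r, Pcdhb4 was the 4 and Pcdhb3 the 5 in rank. For Pcdhb3 the ranks were 13 for Pcdhb2 and 17 for Pcdhb4, and for Pcdhb4 they were 11 for Pcdhb2 and 17 for Pcdhb3.

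These 3 correlations were seen in each diet group. In the fructose arrays alone r was 0.97 for Pcdhb2 and Pcdhb3, 0.94 for Pcdhb2 and Pcdhb4 and 0.92 for Pcdhb3 and Pcdhb4. In the control arrays alone these values were 0.87, 0.96 and 0.94. Without the 2 arrays farthest from the median of the first gene they were 0.86, 0.83 and 0.88. With each array left out in turn they lay between 0.87 and 0.96.

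Other direct neighbours had lower correlations. Pcdhb5 follows Pcdhb4 directly, and their r was 0.40. It was 0.12 between Pcdhb5 and its next neighbour Pcdhb6, and 0.41 between the neighbours Pcdhb20 and Pcdhb21. Pcdhb12, which lies 8 genes beyond Pcdhb4, had an r of 0.66 with Pcdhb4 and 0.64 with Pcdhb3, and Pcdhb20, farther still, one of 0.62 with Pcdhb3 and 0.61 with Pcdhb4. The lowest values were -0.22 for Pcdhb8 and Pcdhb21 and 0.05 for Pcdhb6 and Pcdhb12. Pcdhb6 and Pcdhb8, whose promoter windows were the most alike, had an r of 0.36. The next most alike windows were those of Pcdhb4 and Pcdhb12, with the r of 0.66 given above, and then those of Pcdhb20 and Pcdhb21, with 0.41. Whether promoter likeness goes with co-variation was not tested. The shared set of 2 beta genes had its highest r, 0.82, with Pcdhb5 and its lowest, 0.25, with Pcdhb6. For the shared alpha set r ran from 0.04 (Pcdhb21) to 0.56 (Pcdhb6). For the shared gamma set it ran from -0.72 (Pcdhb5) to 0.36 (Pcdhb6), the only member above 0 with that set. The probe sequences were not used here, so how far each probe set also reads near-identical beta genes is unknown.

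**Figure D3:**
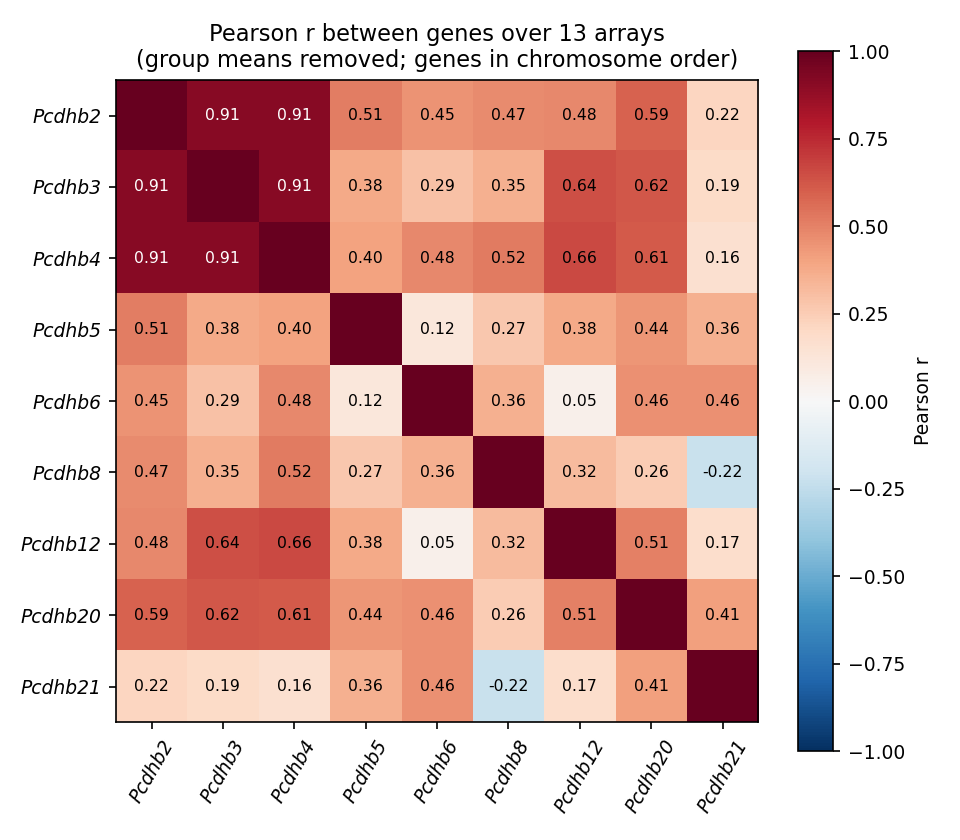
Pearson's r over the 13 arrays for each pair of the 9 protocadherin beta genes, with genes in chromosome order on both axes, red above 0 and blue below. The block of Pcdhb2, Pcdhb3 and Pcdhb4 holds 0.91 in every cell, and all other pairs lie at 0.66 or lower.

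The deviations from the group mean show which brains carried this pattern. Fructose replicate 4 and control replicate 8 were low in all 3 genes, by 0.48 and 0.54 for Pcdhb2 in these arrays, and fructose replicate 1 and control replicate 3 were high, by 0.35 and 0.40 for Pcdhb2. Pcdhb21 deviated by -0.005 to 0.10 in these 4 arrays. Pcdhb5 lay within 0.033 of its group mean in 3 of them and deviated by -0.22 in control replicate 8, its lowest array.

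**Figure D4:**
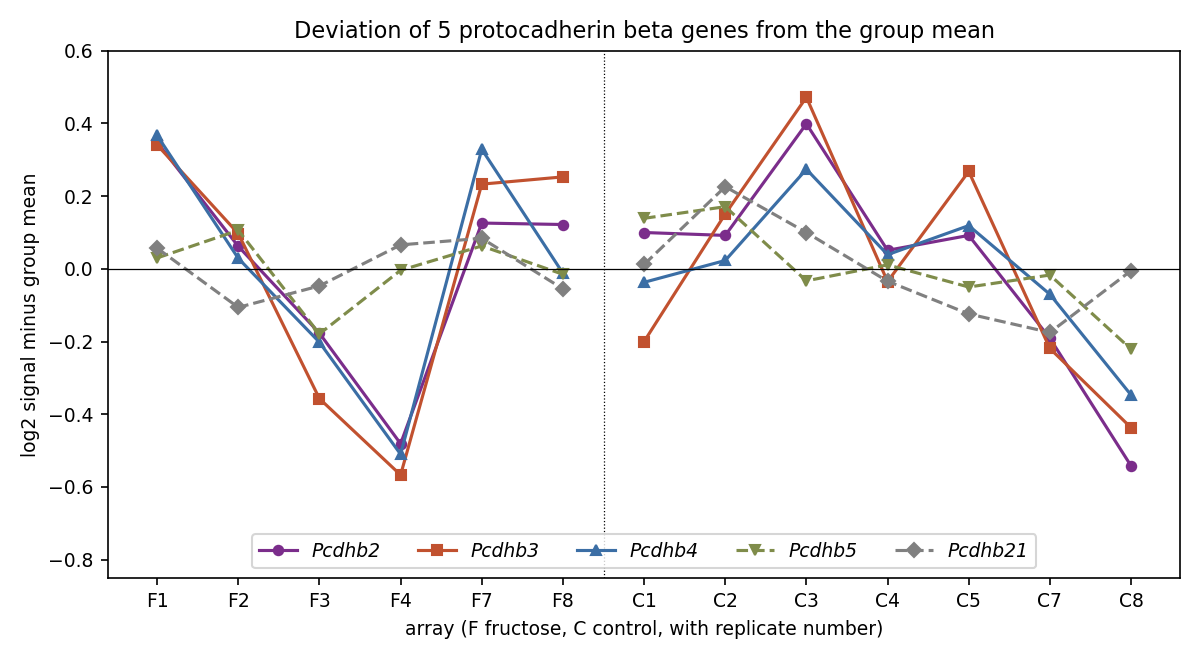
Log2 signal minus the group mean (vertical axis) for 5 protocadherin beta genes in each fructose array (left of the dotted line) and each control array (right); lines join the values of 1 gene and the arrays have no order. Pcdhb2, Pcdhb3 and Pcdhb4 rise and fall together, and Pcdhb5 and Pcdhb21 stay within 0.23 of the mean.

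The genes outside the clusters most like the members were taken as the 5 probe sets with the highest r to the mean of the 9 genes, after removal of the group means. They were Pcdh20, a protocadherin outside the clusters (r = 0.96), Syt12, of the synaptotagmin family (0.95), Scn1a, a voltage-gated sodium channel (0.95), the RNA uridylyltransferase gene Tut1 (0.94) and Atp2b2, a calcium pump of the plasma membrane (0.94). Pcdh20 had 9.18, 9.14, 8.57, 8.42, 9.40 and 9.03 in the fructose samples, against 9.09, 9.08, 9.34, 8.94, 9.07, 8.65 and 8.49 in the control samples. Its low arrays, fructose replicates 3 and 4 and control replicates 7 and 8, were also low in Pcdhb2, Pcdhb3 and Pcdhb4. Of all probe sets, 204 (1.31%) had an r over 0.8 with the mean of the 9. That mean was not scaled by gene, so Pcdhb2, Pcdhb3 and Pcdhb4, the most spread, weighed most in it. By array, the mean of these genes ran from 7.31 to 8.30 and that of the other members from 7.92 to 8.18.

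Slc17a6, the vesicular glutamate transporter of subcortical neurons, and Slc17a7, of the same family, were looked up after these values were seen. With the mean of the 9 genes Slc17a6 had an r of -0.76 (rho -0.505). Slc17a7 had one of -0.07 (rho -0.18), with 0.46 in the control arrays alone and -0.51 in the fructose arrays alone. Slc17a6 was at 6.52, 6.26, 7.83, 8.04, 6.49 and 6.39 in the fructose samples, against 6.71, 6.57, 6.70, 6.07, 6.42, 6.82 and 9.15 in the control samples. The 3 arrays over 7.8, fructose replicates 3 and 4 and control replicate 8, were each low in Pcdhb2, Pcdhb3 and Pcdhb4. In each of these genes they were the lowest fructose samples and the lowest control sample. Leaving out a gene's own lowest samples narrows its spread by itself, and a part of Slc17a6 was not tested. Without these 3 arrays the correlations among the 3 genes were 0.70 to 0.80, the standard deviations were 0.17 for Pcdhb2, 0.23 for Pcdhb3 and 0.16 for Pcdhb4, and the median r of the 36 pairs was 0.28. Standard deviations above these were then found in 16.1% of probe sets for Pcdhb2, 4.64% for Pcdhb3 and 20.8% for Pcdhb4.

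Lists of marker genes for cell types were set beside the members. All 10 neuron markers were measured, with list means of 11.52 to 11.68 in the fructose samples and 11.52 to 11.62 in the control samples. The mean of the 9 protocadherins had an r of 0.70 (rho 0.68) with the neuron list, 0.64 without the 2 arrays farthest from its median. The neuron markers went both ways: 7 of 10 had an r above 0, led by Nefl (0.88), Rbfox3 (0.77), Nefm (0.74) and Snap25 (0.73), and Map2 (-0.66), Tubb3 (-0.54) and Stmn2 (-0.46) were below 0. It had an r of -0.60 (rho -0.43) with 9 of 10 meninges markers, whose means ran over 7.54 to 8.69 in the fructose samples and 7.38 to 8.57 in the control samples, and -0.42 without the 2 farthest arrays. Each of these 9 markers was below 0, from -0.69 (Dcn) to -0.32 (Col1a1). The r was -0.58 (rho -0.53) with 9 of 10 cerebellum markers, at 7.45 to 7.66 in the fructose samples and 7.39 to 7.68 in the control samples. Of these 9 markers 6 were below 0, with Calb1 lowest (-0.69), and Gabra6 (0.64), Pcp2 (0.35) and Fat2 (0.10) were above 0. The samples were brains without the cerebellum, and whether any cerebellar tissue remained was not tested. With the other 6 cell type lists r lay between -0.44 (microglia) and 0.34 (endothelial cells). That with the oligodendrocyte list was 0.26 over all arrays and 0.76 without the 2 farthest. The r of single members with the neuron list ran from -0.11 (Pcdhb21) to 0.75 (Pcdhb4). With the meninges list it ran from -0.63 (Pcdhb8) to -0.02 (Pcdhb21), and with the cerebellum list from -0.67 (Pcdhb2) to 0.13 (Pcdhb21). Among single members, Pcdhb5 had an r of -0.81 with the microglia list and -0.78 with the astrocyte list, and 0.03 with the neuron list. The first 2 are named as the lowest of all members and lists. The microglia means ran over 8.55 to 8.59 in the fructose samples and 8.39 to 8.83 in the control samples. Pcdhb5 was highest in control replicates 1 and 2 (8.16 and 8.19), whose signals were the most narrowly distributed. The r values of Pcdhb5 were not computed without them. The part of cell makeup or dissection in the protocadherin values was not tested.

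The diet comparison asked whether a mother's high fructose diet left a difference in the brain of old offspring. In the limma fit over all 15633 probe sets, 0 of the 9 members passed an adjusted p of 0.05, and neither did any other probe set (0%). At an unadjusted p under 0.05 there was 1 member, higher in the fructose group, where 1.33% of all probe sets were higher and 0.896% lower at this p. In 0 members did the groups lie apart, as they did upwards and downwards in 0.0192% of probe sets each. The fructose mean was higher for 8 of 9 members, with a median difference of 0.06, against 54.1% of all probe sets and a median of 0.0056. The members' median difference was 0.016 without control replicate 8 and 0.11 without control replicate 3. The members varied together and are not 9 separate observations.

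Pcdhb12 was the member with the small unadjusted p, and was at 7.61, 7.59, 7.5, 7.47, 7.73 and 7.54 in the fructose samples, against 7.32, 7.5, 7.35, 7.42, 7.55, 7.35 and 7.33 in the control samples. All 6 fructose samples lay above the control mean and 3 lay above the highest control sample. The difference was 0.17 ± 0.05 (SE), with a 95% interval from 0.06 to 0.28, an unadjusted p of 0.00602 and an adjusted p of 0.9998 from limma. It lay between 0.14 and 0.20 in the 21 other fits, with an unadjusted p under 0.05 and an adjusted p of 0.95 or more in each.

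Pcdhb3 had the largest difference of the members, 0.30 ± 0.17 (SE), with an interval from -0.05 to 0.66 and an unadjusted p of 0.0868 from limma. Its group means were 7.44 ± 0.37 (SD, n = 6) in the fructose samples and 7.14 ± 0.32 (SD, n = 7) in the control samples. The difference was 0.42 without fructose replicate 4, with an unadjusted p of 0.0155, and 0.23 without control replicate 8. It was 0.46 ± 0.12 (SE) without the 3 arrays high in Slc17a6, with an unadjusted p of 0.00231 and an adjusted p of 0.9996. In Pcdhb3 these were the 2 lowest fructose samples and the lowest control sample. Leaving them out took more low values from the fructose group than from the control group.

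Pcdhb4 averaged 8.38 ± 0.33 (SD, n = 6) in the fructose samples and 8.21 ± 0.19 (SD, n = 7) in the control samples, a difference of 0.17 ± 0.13 (SE) with an interval from -0.11 to 0.44. The difference was 0.27 without fructose replicate 4, with an unadjusted p of 0.0279 from limma. It was 0.09 without fructose replicate 1, 0.11 without control replicate 8 and 0.29 without the 3 arrays high in Slc17a6. In Pcdhb4 too these 3 arrays were the lowest of their groups. Pcdhb2 differed by 0.11 ± 0.14 (SE), with an interval from -0.20 to 0.41. It moved to 0.02 without control replicate 8, to 0.04 without fructose replicate 1 and to 0.20 without fructose replicate 4, so single arrays set much of its size.

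The other 5 differences were near 0, with interval bounds between -0.145 and 0.24. Pcdhb6 stood at 0.06 ± 0.08 (SE) and Pcdhb8 at 0.04 ± 0.06. Pcdhb20 differed by 0.02 ± 0.05, Pcdhb21 by 0.01 ± 0.06 and Pcdhb5 by -0.0097 ± 0.06. The signs of Pcdhb5, Pcdhb20 and Pcdhb21 turned in 5, 1 and 6 of the other fits. The shared sets differed by 0.01 ± 0.03 for the alpha genes, 0.05 ± 0.05 for the 2 beta genes and 0.02 ± 0.04 for the gamma genes.

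**Figure D5:**
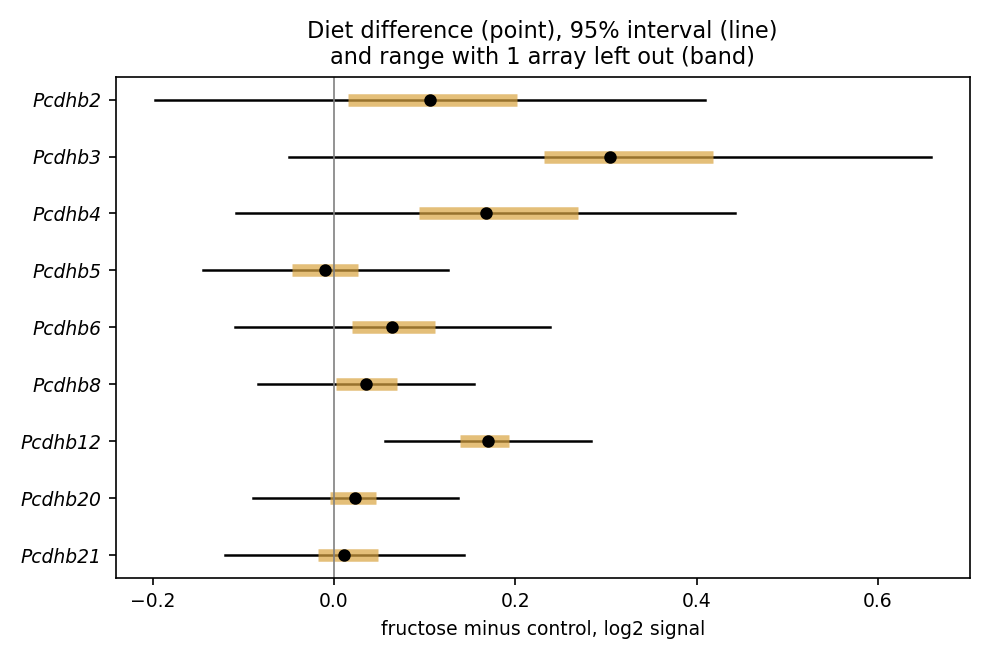
Difference in log2 signal, fructose minus control (horizontal axis), for the 9 protocadherin beta genes: point, 95% interval from limma (line) and range of the difference with 1 array left out (band). The interval of Pcdhb12, from 0.06 to 0.28, lies above 0 and the other 8 include 0.

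Genes that control or work with the clustered protocadherins did not pass the test either. Of the regulators, which place CTCF and the cohesin ring on the clusters or keep their promoters methylated, 17 of 23 listed genes were measured, and 0 passed the adjusted threshold and 0 had an unadjusted p under 0.05, with 10 higher and 7 lower and a median difference of 0.03. Ctcf was at 9.79 ± 0.07 (SD, n = 6) in the fructose samples and 9.76 ± 0.05 (SD, n = 7) in the control samples. Pds5b, a cohesin regulator, differed by -0.01 and the corepressor Trim28 by 0.05. Among those higher, the smallest unadjusted p-values belonged to Wiz, a zinc finger partner of histone methyltransferases (difference 0.11), and the cohesin loader Mau2 (difference 0.08). Among those lower, they belonged to the DNA methyltransferases Dnmt3b (difference -0.08) and Dnmt3a (difference -0.06).

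Of the partners and effectors, 20 of 25 were measured, with 0 past either threshold, 15 higher and 5 lower, and a median difference of 0.03. Nckap1 and Cyfip2, subunits of the WAVE complex that acts on actin, differed by 0.02 and 0.06, and the small GTPase gene Cdc42 by 0.05. Pdcd10 (difference 0.08), Axin1 (difference -0.05) and the receptor kinase gene Ret (difference -0.09) had the other smallest unadjusted p-values in their direction. Ptk2, the focal adhesion kinase, was at 9.68 ± 0.20 (SD, n = 6) in the fructose samples and 9.63 ± 0.11 (SD, n = 7) in the control samples. It is named after its values were seen. Whether the listed partners act with proteins of the beta cluster was not tested.

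Of 12 protocadherins outside the clusters 7 were measured, with 4 higher and 3 lower, a median difference of 0.0070 and 0 past either threshold. Pcdh7 differed by 0.09, Pcdh1 by 0.05, Pcdh17 by 0.0070, Pcdh8 by -0.05 and Pcdh11x by -0.02. Pcdh20 was at 8.96 ± 0.38 (SD, n = 6) in the fructose samples and 8.95 ± 0.29 (SD, n = 7) in the control samples, a difference of 0.0070. From brain to brain it varied with Pcdhb2, Pcdhb3 and Pcdhb4 (r of 0.91, 0.9 and 0.91). The list mean of these 7 genes had an r of 0.08 with the mean of the 9 clustered members.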

How the data were processed

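Per the submitters' processing notes, RMA and R version 3.0.1 were used, and the deposited table holds the authors' log2 signals for 29214 probe sets. The annotation build is not stated in those notes. Precision is limited by the small number of arrays, whose medians lay between 7.99 and 8.07. Differences were fitted on all 15633 probe sets that had a gene with limma 3.58.1 in R 4.3.3 (lmFit, eBayes; fructose minus control), with Benjamini-Hochberg adjustment over all of them and a threshold of 0.05. Correlations and spreads were computed in Python 3.11.15 on residuals from the group means. The fit was tested on simulated data with independent normal noise for each probe set, which lacks the co-variation seen between genes here.

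The members, the gene lists and the naming rule were chosen with earlier results of these data known. The rule picked members by level, spread, p and correlation (all 9 are given here), the 5 probe sets most like the members' mean, and 3 genes with high signal and 2 with small p per direction of each list. Alternatives covered normalization, array weights, filters, a replicate block and single arrays left out. Of the probe sets, 15310 had 1 gene, 323 several and 13581 none. Gene order and promoters come from RefSeq (GRCr8), whose symbols and identifiers matched all 9 members.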

Additional observations from a re-analysis of the deposited data

Results flagged for a closer look

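Within a group, the sample at either end was compared with its nearest neighbour relative to the group's whole range, for 18 groups of values (9 genes in each diet group), and chance alone marks about 1 in 20 such groups. The only sample to stand apart was control replicate 8 for Pcdhb8, at 8.32, with the next control sample at 8.43. The same array was the lowest control sample for Pcdhb2, Pcdhb3, Pcdhb4, Pcdhb5 and Pcdhb20.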

How the results depend on the processing

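The count of members past the adjusted threshold was 0 in all 24 fits. The median difference of the 9 genes, 0.06, was 0.07 with arrays centred on their medians, 0.06 after renewed quantile normalization or cyclic loess, 0.09 with array weights and 0.09 without control replicates 1 and 2, whose signals were the most narrowly distributed. It ran from 0.016 (without control replicate 8) to 0.11 (without control replicate 3) with 1 array left out. The deviations of same-numbered samples correlated from -0.335 to 0.187 over 6 numbers. Whether such samples shared more than a replicate number was not tested. With that number as a replicate block the median difference was 0.045, with control replicate 5 dropping out for want of a partner. The block changed no call. The median pairwise correlation, 0.43, lay between 0.39 and 0.47 in those of these settings that alter it, ran from 0.33 to 0.47 with 1 array left out, was 0.4376 with the replicate block, and was 0.2798 without control replicate 8 and fructose replicates 3 and 4, a setting chosen after seeing the data; fewer samples enter it. Differences near 0 changed sign. Pcdhb5, at -0.0097, was 0.052 without control replicates 1 and 2, 0.018 with array weights and from -0.047 to 0.026 with 1 array left out. Pcdhb20 ran from -0.0048 to 0.046 and Pcdhb21 from -0.018 to 0.049 with 1 array left out, and Pcdhb21 was -0.0095 with the replicate block. The cause was not tested. Planned values for the alpha and gamma clusters were not run, as these had 0 members, and a mean over several probe sets of a gene changed nothing, as each gene had 1. No detection p-values were used, so signal over background is not known for any member.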
